A study of Mus musculus with 4 samples.

Results

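The genes of cholesterol and fatty acid synthesis were followed across 4 genotypes of cultured mouse mammary fibroblasts. A total of 35 genes were chosen by their place in these pathways, with 19 in the sterol branch, 11 in the fatty acid branch and 5 that regulate both. Of these, 34 were measured, among 18194 genes with a probe set of their own on the array, and *Acat2* was not analysed here. For each gene the value is that of its brightest probe set, judged by the mean of the 4 arrays. The rule names genes by function, although earlier results of these data were known when it was written.

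Fibroblasts came from mammary glands of 16-week-old female FVB/N mice and were cultured to the second passage in medium with serum before total RNA was taken. Normal fibroblasts with *Ets2*, a gene for an ETS family transcription factor, were Ets2db/loxP, and normal *Ets2* null fibroblasts were FspCre;Ets2db/loxP. *ErbB2* fibroblasts with *Ets2* were ErbB2;Ets2db/loxP, and *ErbB2* *Ets2* null fibroblasts were ErbB2;Fsp-cre;Ets2db/loxP. All 4 genotypes carried Ets2db, a conventional knockout allele, so that the cells called *Ets2* present had only the loxP allele to rely on. Cre was driven by the Fsp promoter, which is active in fibroblasts and also in some myeloid cells, and the *ErbB2* oncogene by the MMTV promoter, which is active in mammary epithelium, so that the fibroblasts themselves were not the target of the oncogene. Glands with the oncogene were taken before tumors could be felt. There was 1 array per genotype and the number of mice behind an array is not stated, so no difference below has a replicate error or a test.

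Cells make cholesterol from acetyl-CoA through mevalonate, farnesyl pyrophosphate, squalene and lanosterol, and they make long chain fatty acids from the same acetyl-CoA through malonyl-CoA. Both branches are under the control of SREBP transcription factors, which are held in the endoplasmic reticulum by the INSIG proteins while sterols are plentiful and are carried by SCAP to the Golgi for release when sterols run low. Fibroblasts grown in serum can take up lipoprotein cholesterol, and the classical work on feedback control of this pathway was done in cultured fibroblasts.

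SREBP binds the sterol regulatory element, usually beside NF-Y, which binds the CCAAT box, and Sp1, which binds the GC box. RefSeq (GRCm38.p6) promoters were at hand for 27 of the 34 measured genes, and the 250 bases before the start of transcription were searched on both strands. CCAAT occurred in 22 of the 27 (81.5%) and in 37.5% of the promoters of all 27025 genes. It was found in 14 of 14 sterol genes, 4 of 5 regulators and 4 of 8 fatty acid genes. A gene with several listed starts was counted if any of them had a match, here and for all genes. *Dhcr7* and *Me1* had CCAAT only at the last of their listed starts. The GC box GGGCGG also occurred in 22 of the 27 (81.5%), against 35.4% of all genes and 64.6% of the genes that these arrays measured at log2 6 or more. The sterol regulatory element in the form TCACNCCAC was found in *Hmgcs1* alone (3.7%, against 1.22% of all genes), and its last 8 letters, CACNCCAC, which are contained in the longer form, in *Hmgcs1* and *Insig1* (7.41%, against 6.05%). A match is a description of the letters and not of binding, and a promoter without a match only lacks these letters in this window.

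The promoters of 5 genes stand for the groups described below. They are *Hmgcs1* and *Lss* from the sterol branch, chr13:119690101-119690350 and chr10:76531355-76531604, *Insig1* from the regulators, chr5:28071162-28071411, and *Acss2* and *Elovl6* from the fatty acid branch, chr2:155517793-155518042 and chr3:129532136-129532385. All lie on the plus strand and are written 5′ to 3′ up to the base before the start. Capitals mark the CCAAT box, which reads ATTGG where it lies on the other strand, and matches to CACNCCAC on either strand. *Elovl6* is shown because it was among the genes that differed most between the arrays and has none of these letters here.
Hmgcs1: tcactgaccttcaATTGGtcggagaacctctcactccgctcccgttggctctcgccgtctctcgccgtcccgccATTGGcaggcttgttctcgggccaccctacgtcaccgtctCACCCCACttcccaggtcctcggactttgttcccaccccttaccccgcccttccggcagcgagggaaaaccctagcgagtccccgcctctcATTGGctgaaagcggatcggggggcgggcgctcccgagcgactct
Lss: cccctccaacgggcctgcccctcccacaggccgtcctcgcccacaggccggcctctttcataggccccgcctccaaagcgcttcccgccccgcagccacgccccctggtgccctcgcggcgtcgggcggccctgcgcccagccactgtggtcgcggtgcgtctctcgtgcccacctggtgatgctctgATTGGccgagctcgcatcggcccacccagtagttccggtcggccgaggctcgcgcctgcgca
Insig1: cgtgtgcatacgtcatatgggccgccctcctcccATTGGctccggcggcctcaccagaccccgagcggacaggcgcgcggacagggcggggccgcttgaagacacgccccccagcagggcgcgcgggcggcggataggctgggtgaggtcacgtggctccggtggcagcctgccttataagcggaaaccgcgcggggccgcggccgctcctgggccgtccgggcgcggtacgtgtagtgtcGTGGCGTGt
Acss2: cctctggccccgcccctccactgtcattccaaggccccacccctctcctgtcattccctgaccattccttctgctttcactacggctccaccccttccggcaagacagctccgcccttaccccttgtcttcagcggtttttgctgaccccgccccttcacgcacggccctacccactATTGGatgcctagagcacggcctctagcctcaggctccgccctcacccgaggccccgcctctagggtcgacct
Elovl6: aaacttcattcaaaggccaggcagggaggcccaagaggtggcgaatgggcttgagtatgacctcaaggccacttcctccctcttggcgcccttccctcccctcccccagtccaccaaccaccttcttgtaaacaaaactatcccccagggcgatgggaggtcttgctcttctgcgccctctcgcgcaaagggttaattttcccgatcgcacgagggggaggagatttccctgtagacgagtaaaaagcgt
The match to TCACNCCAC in *Hmgcs1* begins 137 bases before the start, between CCAAT boxes whose first bases lie 237, 176 and 45 bases before the start. The CCAAT box of *Lss* begins 62 bases and that of *Acss2* 73 bases before the start. In *Insig1* the CCAAT box begins 216 bases before the start and the CACNCCAC match on the other strand 9 bases before it.

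**Figure D1:**
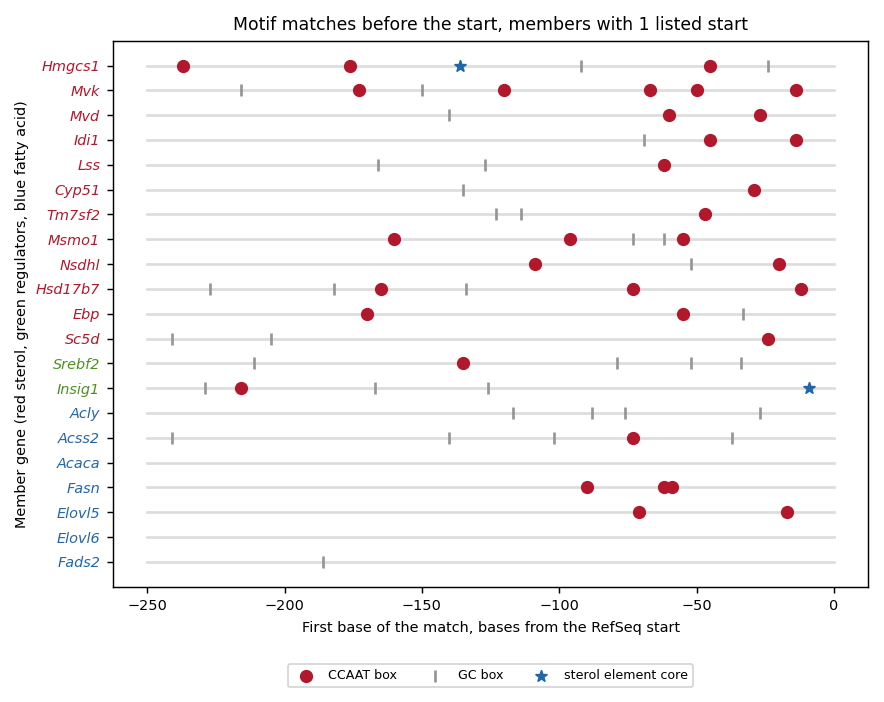
Positions of motif matches in the 250 bases before the RefSeq start, for the genes with 1 listed start; the horizontal axis is the distance of a match's first base from the start in bases, each row is a gene, circles are CCAAT boxes, bars GC boxes and stars the letters CACNCCAC, all on either strand. Every sterol gene shown has a CCAAT box, and stars appear for *Hmgcs1* and *Insig1*.

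The arrays resembled each other as a whole. The median log2 value per array lay between 5.51 and 5.54, Pearson's r between arrays was 0.988 to 0.993, and the share of probe sets that reached log2 6 was 42.5% to 42.8%. The brightest *Ets2* probe set read 8.14, 8.35, 8.34 and 8.31 in normal fibroblasts with *Ets2*, normal *Ets2* null, *ErbB2* with *Ets2* and *ErbB2* *Ets2* null fibroblasts, which is the order of arrays used for every set of 4 values below. The sources used here do not say where it lies relative to the deleted part of the gene, so it does not check the labels. Fibroblast markers were abundant on every array, with a median of 11.84 to 12.98 over 12 genes. In these bulk cultures, fewer cells of a type and less RNA per cell cannot be told apart.

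Loss of *Ets2* in fibroblasts from glands with the oncogene went with higher levels along both branches. Of the 34 genes, 32 were higher in *ErbB2* *Ets2* null than in *ErbB2* fibroblasts with *Ets2*, against 55.8% of all genes, and the median log2 difference was 0.80 (interquartile range 0.53 to 1.11), against 0.04 for all genes. More than 2-fold higher, the size used here in place of a test, were 12 of the 34, against 0.341% of all genes, and none was more than 2-fold lower, against 1.74%. The 12 were *Pmvk*, *Mvd*, *Idi1*, *Fdft1*, *Lss*, *Cyp51* and *Nsdhl* of the sterol branch, *Acss2*, *Elovl6*, *Scd1* and *Scd2* of the fatty acid branch, and the regulator *Insig1*. They made up 35.3% of the measured genes of these pathways and 19.4% of the 62 genes of the array that passed this size. None of the 34 was more than 4-fold higher, against 0.033% of all genes.

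**Figure D2:**
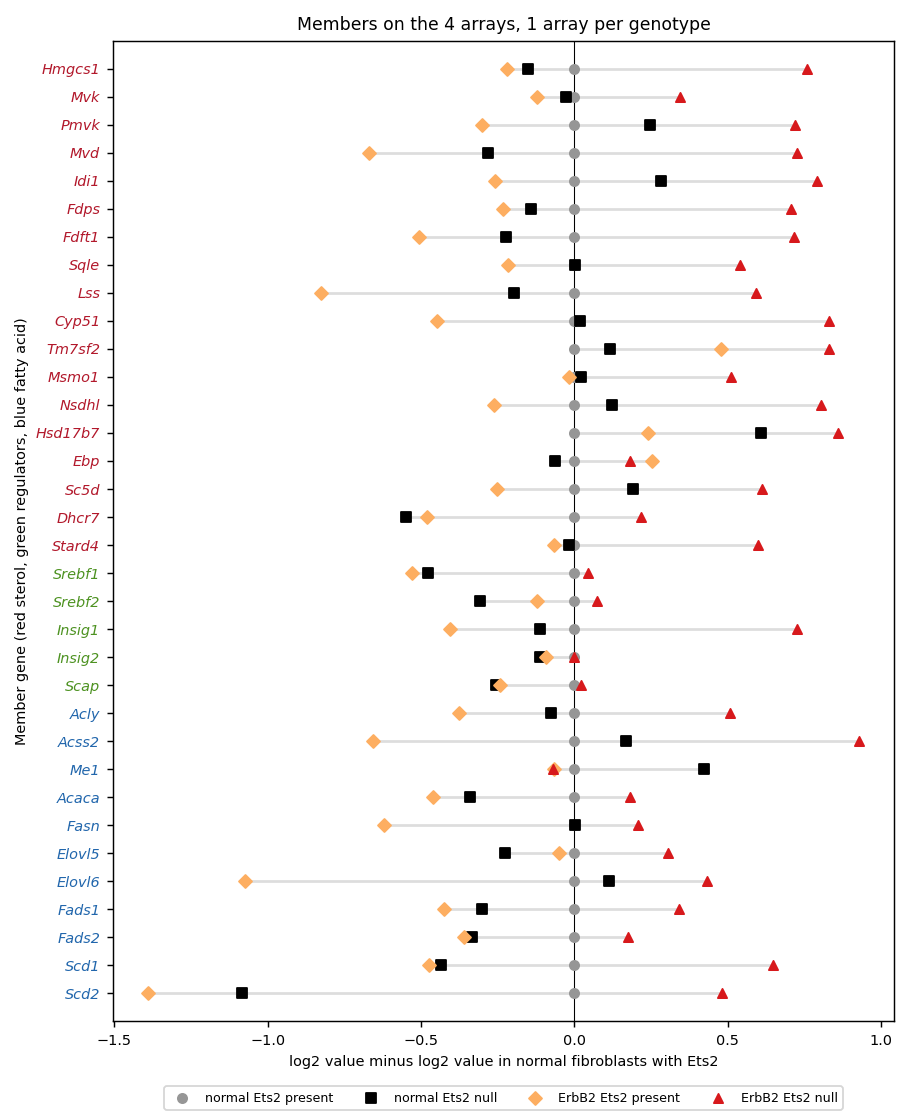
Log2 value of each of the 34 genes on each of the 4 arrays minus its value in normal fibroblasts with *Ets2* (horizontal axis); each row is a gene, each symbol 1 array with no error bar. The red triangles (*ErbB2* *Ets2* null) are farthest right in 31 rows and the orange diamonds (*ErbB2* with *Ets2*) farthest left in 25.

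The first steps of the sterol branch, from acetyl-CoA units to farnesyl pyrophosphate, differed in the same direction throughout. All 6 measured genes were higher without *Ets2* in *ErbB2* fibroblasts, and the interquartile range of their log2 differences was 0.95 to 1.04. *Mvd* (Entrez Gene 192156), the decarboxylase that makes isopentenyl pyrophosphate, read 7.77, 7.49, 7.10 and 8.50. Its *ErbB2* *Ets2* null array was the highest and its *ErbB2* array with *Ets2* the lowest, 2.63-fold apart. *Idi1* (319554), the isomerase that acts on that product, read 8.998, 9.28, 8.74 and 9.79, and *Pmvk* (68603), phosphomevalonate kinase, read 7.89, 8.13, 7.58 and 8.61. Both had the same highest and lowest arrays as *Mvd*, with log2 differences of 1.05 and 1.02 between them. *Hmgcs1*, HMG-CoA synthase, read 10.95, 10.80, 10.73 and 11.71, which is a difference of 0.98 and just short of 2-fold. *Fdps*, farnesyl pyrophosphate synthase, was a little further short at 0.94, and *Mvk*, mevalonate kinase, differed least of the 6 at 0.47.

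The steps from farnesyl pyrophosphate to lanosterol, the first that are committed to sterols, had the highest median of the 3 sterol groups with more than 1 gene. The median log2 difference was 1.22 over 3 genes. *Lss* (Entrez Gene 16987), which closes the sterol rings to give lanosterol, read 8.95, 8.75, 8.12 and 9.54. That is 2.68-fold between the *ErbB2* arrays, and the *ErbB2* array with *Ets2* lay below both normal arrays. *Fdft1* (14137), squalene synthase, read 9.07, 8.85, 8.57 and 9.79, a 2.33-fold difference between the *ErbB2* arrays. *Sqle*, squalene epoxidase, differed by 0.76.

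From lanosterol to cholesterol the differences were more uneven. The median over 8 genes was 0.66, with 7 above 0. *Cyp51* (Entrez Gene 13121), the lanosterol demethylase, read 9.50, 9.51, 9.05 and 10.33, and *Nsdhl* (18194), a dehydrogenase of the following demethylation, read 9.59, 9.71, 9.33 and 10.39. The normal arrays differed by 0.02 and 0.12 for these genes, while the *ErbB2* arrays differed by 1.28 and 1.06. *Ebp*, the sterol isomerase, was the exception, at 10.13, 10.07, 10.38 and 10.31, with a difference of -0.07. *Sc5d*, a sterol desaturase, differed by 0.87, *Dhcr7*, the reductase of the last step, by 0.70, *Hsd17b7*, a keto-sterol reductase, by 0.62, *Msmo1*, the methylsterol oxidase, by 0.53 and *Tm7sf2*, a sterol reductase, by 0.35. *Stard4*, which carries cholesterol between membranes, was higher by 0.67.

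In the fatty acid branch, 10 of 11 genes were higher without *Ets2* in *ErbB2* fibroblasts, with a median log2 difference of 0.83, beside 0.90 for the 18 sterol genes. *Scd2* (Entrez Gene 20250), a stearoyl-CoA desaturase that makes monounsaturated fatty acids, read 11.72, 10.64, 10.34 and 12.21. It differed most of all 34 genes, 3.66-fold, and stood at rank 9 of the array in this comparison. Its paralog *Scd1* (20249) read 9.96, 9.52, 9.48 and 10.60, with the same order of arrays and a 2.18-fold difference. For both genes the *ErbB2* *Ets2* null array was highest, normal with *Ets2* came next, and the other arrays lay lower. *Fads1* and *Fads2*, the desaturases of polyunsaturated fatty acids, differed by 0.77 and 0.53.

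*Elovl6* (Entrez Gene 170439), which elongates palmitate, read 7.73, 7.84, 6.65 and 8.16. The *ErbB2* array with *Ets2* was lower than the other 3, and the *ErbB2* arrays were 2.84-fold apart. *Elovl5*, an elongase of polyunsaturated chains, differed by 0.35. *Acss2* (60525), which makes acetyl-CoA from acetate, read 6.24, 6.41, 5.58 and 7.17, a log2 difference of 1.58 between the *ErbB2* arrays in which the lower array was under log2 6, where the array separates signal from background poorly. *Acly*, which makes acetyl-CoA from citrate, differed by 0.88, *Fasn*, fatty acid synthase, by 0.83 and *Acaca*, acetyl-CoA carboxylase, by 0.64. *Me1*, a malic enzyme that supplies NADPH, did not follow the branch: it read 9.63, 10.06, 9.57 and 9.56 and was highest in normal *Ets2* null fibroblasts.

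The median over the 5 regulators was lower than that of either branch, 0.26, and all 5 were above 0. *Insig1* (Entrez Gene 231070), which holds SREBP back and is itself a SREBP target, read 8.88, 8.77, 8.48 and 9.61, a 2.19-fold difference between the *ErbB2* arrays. *Srebf1*, which encodes the SREBP best known for fatty acid genes, read 8.93, 8.46, 8.40 and 8.98, with a difference of 0.57 between the *ErbB2* arrays, and normal fibroblasts with *Ets2* lay near the higher of these. *Srebf2*, which encodes the SREBP best known for sterol genes, read 8.68, 8.37, 8.56 and 8.75, with a difference of 0.20. *Scap*, the escort protein, differed by 0.26 and *Insig2* by 0.09.

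Most of these genes had several probe sets, so that the difference could be read more than once on the same arrays. Of all 79 probe sets of the 34 genes, 72 were higher in *ErbB2* *Ets2* null than in *ErbB2* fibroblasts with *Ets2*, and 23 of them more than 2-fold. Of the 7 that were not, 5 were under log2 6 on every array, and the other 2 were those of *Ebp* and *Me1* already given. Apart from the brightest probe set of each gene, 40 of 45 probe sets were higher, with a median of 0.60. Of these 45, 32 probe sets of 21 genes reached log2 6 on at least 1 array, and all 32 were higher, with a median of 0.67. Probe sets of *Lss*, *Acss2* and *Cyp51* passed this floor only in *ErbB2* *Ets2* null fibroblasts, so the floor itself favours higher values there. The 3 probe sets of *Scd2* gave 1.87, 2.12 and 2.02, and the 2 of *Mvd* gave 1.40 and 1.51. The probe set of *Lss* is of a kind that may cross-hybridise, and the brightest *Lss* probe set that is not gave 1.13, although it passed log2 6 on 1 array only. Probe sets of a gene share the RNA and the array, so their likeness is no replicate check. The shares of all probe sets of the array were not computed for the counts of this paragraph.

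**Figure D3:**
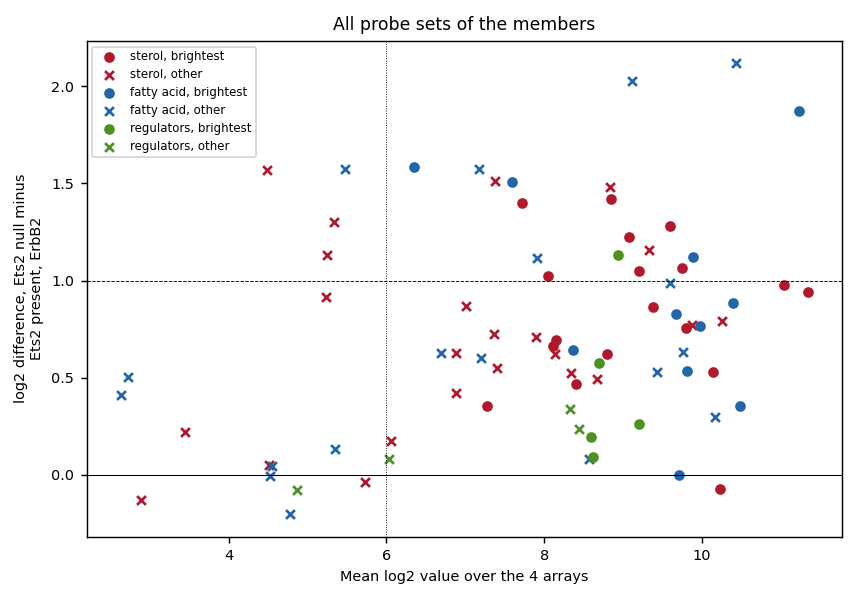
Log2 difference between *ErbB2* *Ets2* null and *ErbB2* fibroblasts with *Ets2* (vertical axis) against mean log2 value over the 4 arrays (horizontal axis) for the 79 probe sets of the 34 genes; circles are the brightest probe set of a gene, crosses the others, the dashed line 2-fold and the dotted line log2 6. Of the 79 points 72 lie above 0, and 5 of the 7 at or below it are left of the dotted line.

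In normal fibroblasts the same loss of *Ets2* gave small differences of either sign. Of the 34 genes, 13 were higher and 21 lower without *Ets2*, against 49.4% of all genes higher, and the median was -0.09 (interquartile range -0.27 to 0.09). Differences of less than 0.5 either way were seen for 31 of the 34, a share near that of all genes, 17033 of 18194. None was more than 2-fold higher, against 0.621% of all genes. *Scd2* was the 1 gene more than 2-fold lower, against 0.357% of all genes, at 2.12-fold, and its 3 probe sets gave -1.08, -1.01 and -1.17. The sterol branch had a median of -0.01 with 9 of 18 genes above 0, the fatty acid branch -0.23 with 4 of 11 above 0, and the regulators -0.25 with none of 5 above 0. Beyond *Scd2*, *Dhcr7* was lower by 0.55, and *Srebf1* and *Scd1* by 0.48 and 0.43. *Hsd17b7* was the highest of the 34 at 0.61, and *Me1* was higher by 0.42.

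In absolute size, the *Ets2* difference was larger in *ErbB2* than in normal fibroblasts for 31 of the 34 genes. Differences were also somewhat wider over all genes, with interquartile ranges of -0.15 to 0.22 in *ErbB2* and -0.14 to 0.15 in normal fibroblasts. The *Ets2* difference was below 0 in normal and above 0 in *ErbB2* fibroblasts for 20 of the 34 and above 0 in both for 12. The shares of all genes for these counts were not computed. The gap between the comparisons was widest for *Scd2*, 2.96 on the log2 scale. Across the 34 genes, which are not independent, the 2 differences had a Pearson r of -0.20 and a Spearman rho of 0.02, and without *Scd2* 0.03 and 0.11, given here as a description only. No array is shared by the 2 comparisons. Whether the *Ets2* difference depends on the oncogene could not be tested with 1 array per genotype.

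**Figure D4:**
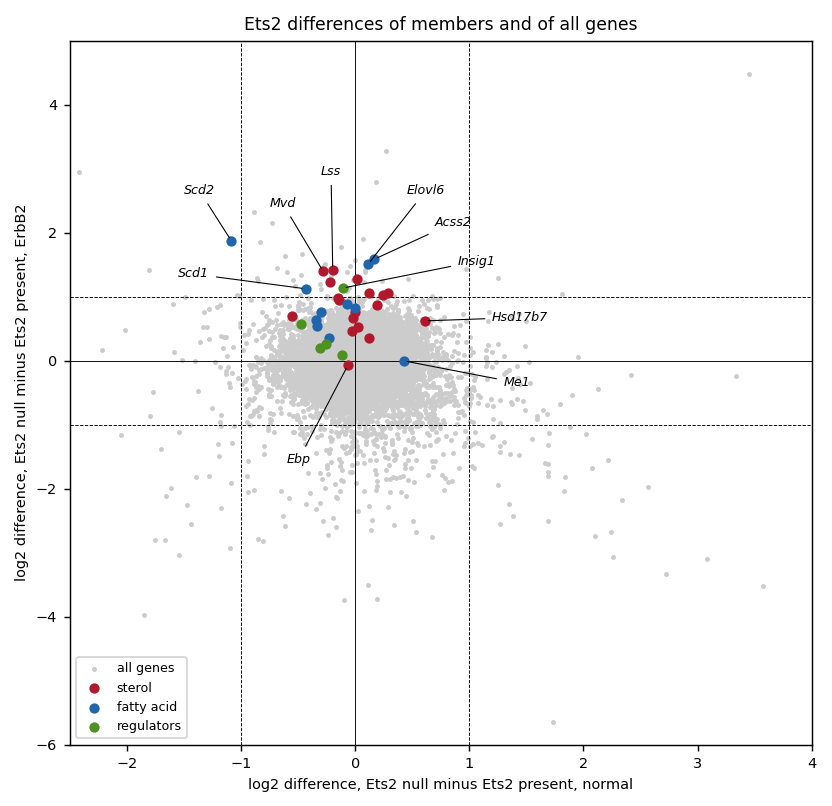
Difference in log2 value, *Ets2* null minus *Ets2* present, in *ErbB2* fibroblasts (vertical axis) against that in normal fibroblasts (horizontal axis); grey points are all 18194 genes, coloured points the 34 genes by group, and dashed lines 2-fold. Of the coloured points 32 lie above 0 on the vertical axis, and *Scd2* stands apart at -1.08 in normal and 1.87 in *ErbB2* fibroblasts.

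The oncogene comparisons use the same arrays and place the 2 *ErbB2* arrays on opposite sides of the normal ones for most genes. With *Ets2* present, 31 of 34 genes were lower in *ErbB2* than in normal fibroblasts, with a median of -0.28, and 3 were higher, against 46.4% of all genes. *Elovl6* and *Scd2* were more than 2-fold lower, with log2 differences of -1.07 and -1.39, against 0.17% of all genes, and none was more than 2-fold higher, against 0.83%. All 11 fatty acid genes were lower, with a median of -0.46, beside -0.24 for the sterol branch, in which *Tm7sf2*, *Ebp* and *Hsd17b7* were higher by 0.48, 0.25 and 0.24. Without *Ets2*, 33 of 34 genes were higher in *ErbB2* than in normal fibroblasts, against 54.8% of all genes, with a median of 0.54. *Mvd*, *Scd1* and *Scd2* were more than 2-fold higher, at 2.01-fold, 2.12-fold and 2.96-fold, against 0.544% of all genes. None was more than 2-fold lower, against 1.51%, and the 1 gene below 0 was *Me1* at -0.49.

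Over the 4 arrays, 31 of the 34 genes were highest in *ErbB2* *Ets2* null fibroblasts, against 31.7% of all genes, and 25 were lowest in *ErbB2* fibroblasts with *Ets2*, against 30.9%. The same 25 of the 34 genes had both extremes, an order that 14.5% of all genes had and 12.9% of genes at log2 6 or more on any array. They were 14 of 18 sterol genes, 9 of 11 fatty acid genes and 2 of 5 regulators. Those with another order were *Dhcr7*, *Ebp*, *Hsd17b7*, *Tm7sf2*, *Elovl5*, *Me1*, *Insig2*, *Scap* and *Srebf2*. The median level of the sterol branch was 9.04, 9.13, 8.67 and 9.79, and that of the fatty acid branch 9.94, 9.77, 9.57 and 10.11.

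Neighbouring lipid pathways had medians near 0. Over 79 measured genes of the wider lists, which cover SREBP processing, LXR and oxysterols, sterol uptake and storage, isoprenoids, other fatty acid elongation and activation, triglycerides and lipid droplets, and fatty acid oxidation, the median between the *ErbB2* arrays was 0.02, with 40 genes above 0. More than 2-fold higher were 2 genes, against 0.341% of all genes, and more than 2-fold lower 2, against 1.74%. The higher ones were *Cyp7b1*, an oxysterol hydroxylase, at 7.87, 6.06, 8.08 and 9.50, and *Acsl3*, an acyl-CoA synthetase of lipid droplets, at 7.44, 7.20, 7.45 and 8.46. The lower ones were *Cav1*, the caveolin of cholesterol-rich membrane domains, by 1.21, and *Mgll*, monoglyceride lipase, by 1.05.

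By list, the median between the *ErbB2* arrays was -0.07 for the other SREBP processing genes, where *Mbtps1* and *Mbtps2*, the proteases that release SREBP, differed by 0.08 and -0.07. It was 0.13 for LXR and oxysterol genes, 0.00 for uptake, storage and trafficking, 0.15 for the isoprenoid branch, which draws on the same farnesyl pyrophosphate, 0.01 for other elongation and activation, -0.12 for triglycerides and droplets and 0.05 for fatty acid oxidation. In normal fibroblasts the LXR and oxysterol list had a median of -0.40, with *Cyp7b1* lower by 1.81 and *Abca1*, the cholesterol exporter, lower by 1.07 without *Ets2*. Of the remaining genes chosen by size from these lists, *Lpin1*, a phosphatidate phosphatase, differed by 0.81 between the *ErbB2* arrays, *Decr1* and *Acadm* of fatty acid oxidation by 0.37 and 0.27, *Nceh1*, a cholesterol ester hydrolase, by -0.63, *Nus1* and *Fntb* of the isoprenoid branch by -0.38 and -0.11, and *Elovl4*, under log2 6 on both *ErbB2* arrays, by -0.89.

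**Figure D5:**
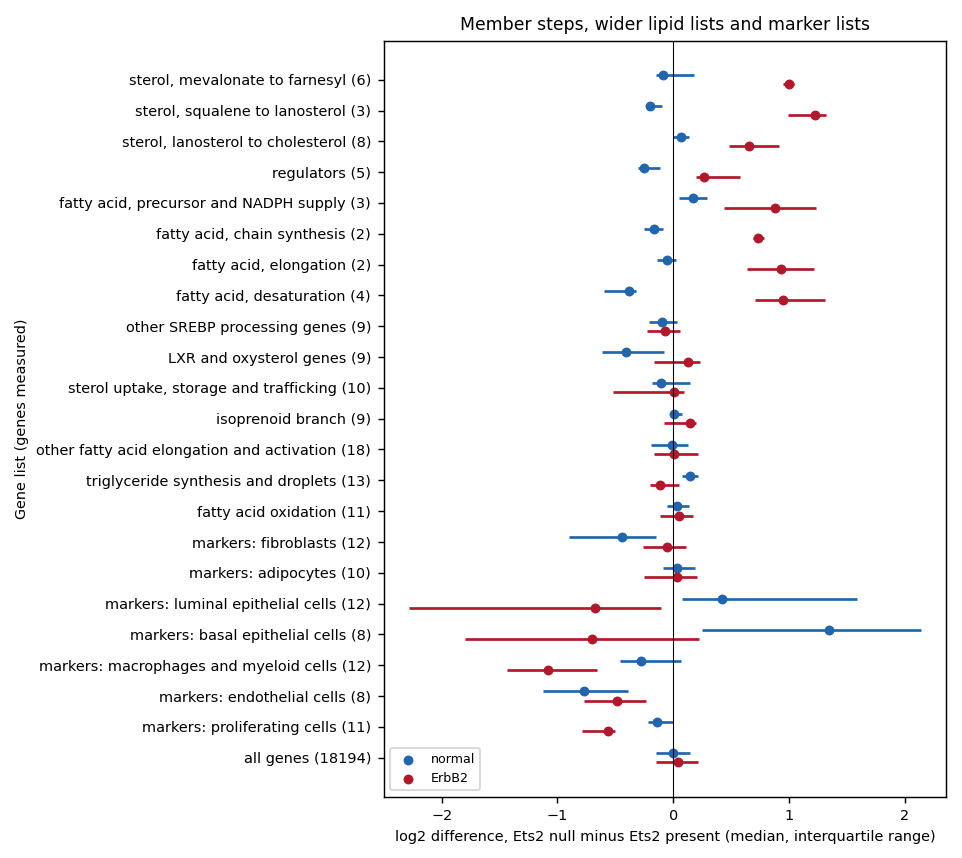
Median difference in log2 value, *Ets2* null minus *Ets2* present (points), with its interquartile range over genes (lines) in normal (blue) and *ErbB2* fibroblasts (red), for the steps of the 2 branches, the wider lipid lists, the cell type markers and all genes, with the number of genes in parentheses. In *ErbB2* fibroblasts the enzyme steps lie between 0.66 and 1.22, the wider lists between -0.12 and 0.15, and the myeloid markers at -1.08.

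Markers of other cells also differed between these arrays, mostly in the opposite direction, and their part in the differences was not tested. Between the *ErbB2* arrays the myeloid list was lower without *Ets2* in 12 of 12 genes, with a median of -1.08 and summed log2 levels of 98.3, 94.8, 110.2 and 96.5. None of the 12 was below log2 6 on every array. Luminal epithelial markers were lower in 9 of 12 genes and higher in 3, with a median of -0.67. Of the 12, 6 were more than 2-fold lower, and the summed levels were 68.5, 81.1, 79.8 and 66.4. Basal markers were lower in 5 of 8 genes and higher in 3, with a median of -0.71. Of the 8, 3 were more than 2-fold lower, and the sums were 39.5, 49.4, 45.9 and 38.2. Among the genes of these epithelial lists that were higher, only *Jag2*, at 0.19, reached log2 6 on any array. The largest falls were those of the luminal keratins *Krt18* and *Krt8*, 11.4-fold and 8.56-fold, and of the basal keratin *Krt14*, 10.1-fold. *Krt18* read 5.21, 8.78, 8.52 and 5.01. The luminal genes *Cdh1*, *Elf5*, *Csn2*, *Csn3* and *Wap* and the basal ones *Krt17*, *Trp63*, *Oxtr* and *Col17a1* were under log2 6 on every array. Endothelial markers were lower in 8 of 8 genes, with a median of -0.49 and sums of 52.7, 46.9, 50.6 and 46.5. Genes of proliferating cells were lower in 11 of 11, with a median of -0.56 and sums of 99.5, 98.9, 104.1 and 97.3. The endothelial genes *Tek* and *Tie1* and the proliferation gene *Tyms* were under log2 6 on every array.

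Lipid-storing cells were read from the adipocyte list, since they use the same pathways. Its median between the *ErbB2* arrays was 0.03 over 10 genes, with sums of 52.1, 54.3, 53.4 and 52.9. Of the 10, 7 were under log2 6 on every array, among them *Adipoq*, *Lep* and *Lipe*. *Fabp4*, a fatty acid carrier that macrophages also express, read 10.47, 11.34, 11.06 and 10.37, and *Pparg* read 7.74, 9.53, 9.20 and 8.53. These were lower in the *ErbB2* array without *Ets2* by 0.69 and 0.67, while 6 of the 10 genes of the list were above 0, from 0.01 for *Retn* to 0.49 for *Cidec*. Of these 6 only *Retn* reached log2 6 on any array, so the median of the list rests mostly on genes near background. Over 4 sebaceous markers the median was 0.21, with sums of 23.8, 23.3, 23.1 and 24.1. Of these, *Mc5r* and *Krt79* were under log2 6 on every array. Fibroblast markers had a median of -0.05 in *ErbB2* fibroblasts, with 6 of 12 genes above 0. Their differences there ran from -1.03 for *Lum* to 0.64 for *Pdgfra*. In normal fibroblasts the median of these markers was -0.44, and the sums were 141.9, 136.3, 144.6 and 143.2.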

How the data were processed

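RNA was hybridised to Affymetrix mouse genome arrays, 1 per genotype. The authors deposited log2 values made with RMA, as the methods and the submitters' processing notes say. The RMA software, its version and the probe definitions used were not given in the sources used here. Because RMA equalises the distributions of the arrays, it hides any shift common to most genes. Of 45101 probe sets, 34958 had 1 symbol in the platform annotation, 932 had several and 9211 were unnamed here. Log2 differences between arrays were computed per gene from the singly named probe set with the highest mean (Python 3.11.15, pandas 2.3.3, numpy 2.4.6) and drawn with matplotlib 3.10.9. An absolute log2 difference over 1 (2-fold) stood in for a test, since the 4 arrays, 1 per genotype, limit the precision and allow no p-value.

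Members and lists were chosen with earlier results of these data known. All measured members were accounted for. Values on all arrays were given for members past 2-fold in any of the 4 comparisons and for the 3 members of each group with the largest *Ets2* differences, and from each wider list the 2 genes with the largest *Ets2* differences were named, where the higher array reached log2 6. Others named as exceptions or examples were chosen after their values were seen. Alternatives were 1.5-fold and 4-fold (the study's size), the mean of probe sets, leaving out _x_at and _s_at probe sets, median centring, quantile normalization, a floor at log2 6, correction by loess with span 0.4 in statsmodels 0.14.6, and means over a branch. The 2-fold call and the median were run on simulated differences with known shifts, as a check of the code only. No other step was run on simulated data. Promoter sequences came from RefSeq on GRCm38.p6.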

Additional observations from a re-analysis of the deposited data

Results flagged for a closer look

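Of the 20 genes below 0 in normal and above 0 in *ErbB2* fibroblasts, the following 10 differed in each comparison by more than the robust SD of all genes, 0.215 in normal and 0.271 in *ErbB2* fibroblasts. The share of all genes that meet the same rule was not computed. With 1 array per genotype, none of the differences of the 10 genes was tested. For each, the *Ets2* difference in *ErbB2* fibroblasts minus that in normal fibroblasts is given on the log2 scale, where the first was above 0 and the second below it. In the sterol branch it was 1.68 for *Mvd*, 1.45 for *Fdft1* and 1.25 for *Dhcr7*. For the regulator *Srebf1* it was 1.05. In the fatty acid branch it was 2.96 for *Scd2*, 1.56 for *Scd1*, 1.07 for *Fads1*, 0.98 for *Acaca*, 0.87 for *Fads2* and 0.58 for *Elovl5*. The group medians were apart by 0.91 for the sterol branch, 0.52 for the regulators and 1.05 for the fatty acid branch. The sterol median in normal fibroblasts was close to 0, at -0.01, and was above 0 under 3 alternatives, at 0.01 without _x_at and _s_at probe sets and 0.02 with quantile normalization or loess correction, so its direction was not kept. The second probe set of *Mvd* was above 0 in normal fibroblasts as well, at 0.27. So was the second brightest probe set of *Fdft1*, at 0.07, while the other probe sets of *Fdft1* were below 0 there.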

How the results depend on the processing

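The branch medians kept their value within the spread of all genes under every alternative, between 0.70 and 1.02 for the sterol branch and between 0.70 and 0.96 for the fatty acid branch in the *Ets2* comparison of *ErbB2* fibroblasts. The count of 12 genes more than 2-fold higher there was 10 to 15 with other probe sets or normalizations, 23 at 1.5-fold and 0 at 4-fold. In normal fibroblasts 1 gene was higher at 1.5-fold, where none was at 2-fold, and 0 were lower at 4-fold, where 1 was at 2-fold. With *Ets2* present, the 2 genes lower in *ErbB2* than in normal fibroblasts became 6 at 1.5-fold, 0 at 4-fold and 1 with the mean of probe sets. Without *Ets2*, the 3 higher genes became 15 at 1.5-fold, 0 at 4-fold and 2, without *Mvd*, with median centring or loess correction. *Mvd* also fell short of 2-fold there with either other choice of probe sets, and *Pmvk* between the *ErbB2* arrays with median centring. For these counts, the shares of all genes at 1.5-fold, or with other probe sets or normalizations, were not computed. For single genes in the 2 *Ets2* comparisons, 397 values moved by less than the robust SD of all genes' differences and 11 moved by more. That SD was 0.215 in normal and 0.271 in *ErbB2* fibroblasts. None of the values past 2-fold changed sign. Many values could not move, since the floor at log2 6 removed no gene and 9 genes have 1 probe set. Leaving out _x_at and _s_at probe sets also changed only genes whose brightest probe set is of that kind. In normal fibroblasts *Mvd* went from -0.28 to 0.27 without _x_at and _s_at probe sets, and *Idi1* from 0.28 to -0.03 with the mean of probe sets. Among the genes more than 2-fold higher, the mean of probe sets, which includes dim ones, gave 0.71 for *Fdft1*, 0.84 for *Idi1* and 0.99 for *Acss2*. No paired analysis was possible because each genotype has 1 array and the labels carry no replicate numbers. No array could be left out for the same reason, and signal near background limits *Acss2*.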
